A study of Homo sapiens with 8 samples.

Results

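The comparison described here set HGC27 cells overexpressing p53 R273H against HGC27 cells overexpressing p53 R248Q. HGC27 is a human line from a poorly differentiated gastric carcinoma, and the labels describe it as lacking p53. There were 2 RNA-seq libraries of R273H cells and 2 of R248Q cells, which is 4 of the 8 libraries of the series. The other libraries came from cells overexpressing R175H and from GFP cells labelled as null for mutant p53, 2 libraries each. All 8 libraries came from the same line, grown in alpha-MEM medium. The title of the series speaks of p53 KO and KD, whereas its design text and labels describe overexpression, and the groups are named here as the labels give them. The labels used here state neither the vector, its promoter, nor whether cells were pooled or cloned. Of 25435 gene symbols in the table, 13085 passed a filter on low counts in the 4 libraries and were tested.

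The p53 protein is a transcription factor that binds DNA through its central domain. The arginines that R273H and R248Q replace both touch DNA directly, so these are classed together as contact mutants, while R175H belongs to the structural mutants that unfold the domain. Such mutants lose most binding to the sites that wild-type p53 uses, and both are common in tumours. The question was how far cells carrying one contact mutant differed in their transcripts from cells carrying the other, with no GFP library entering the fold changes.

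The R273H libraries held 11287251 and 11788035 counts and the R248Q libraries 11659301 and 11599907 counts, so depth was close to equal. A count of 0 in one of these libraries allowed at most 0.254 to 0.266 CPM (reads of a gene relative to the whole library) at a floor of 3 counts, and this covers counting error only. The 2 libraries of each mutant differed from each other by more than sampling noise, with a chi-square of 1.51 per degree of freedom in R273H and 1.21 in R248Q, and were kept as 2 samples. The labels do not say whether they are separate cultures, so the spread between these libraries may be technical. The p-values rest mostly on that spread as shared over all genes, and little on each gene's own. The vimentin gene VIM, a mesenchymal marker, had 5071 and 5038 CPM in R273H, against 4720 and 4618 CPM in R248Q. CDH2, another mesenchymal marker, had 0.534 and 0.855 CPM in R273H, against 0.512 and 0.514 CPM in R248Q. The epithelial markers KRT18, EPCAM and CDH1 had no more than 3 counts in any of the 4 libraries. KRT8, also epithelial, had 14 and 29 counts in R273H, against 33 and 39 counts in R248Q. Of 24 epithelial junction genes in the table, 21 had a count. They summed to 298 to 310 CPM in R273H, against 323 to 336 CPM in R248Q. TFF1, TFF2, GKN1 and PGC, which mark gastric epithelium, were at 0, and 10 of 19 gastric markers in the table had a count in any of the 4 libraries. Their summed level was 77.7 to 79.0 CPM in R273H, against 75.1 to 78.4 CPM in R248Q. Blood markers summed to 15.7 to 16.9 CPM in R273H, against 15.4 to 15.9 CPM in R248Q, with CD3E and HBB at 0. Endothelial markers summed to 0.940 to 2.85 CPM in R273H, against 1.37 to 1.96 CPM in R248Q, with CDH5 and VWF at 0. The gastric sum came mostly from GATA4, GATA6 and MUC1, which other tissues also express, and the blood sum from the alpha-globin gene HBA1, at 12.5 and 11.9 CPM in R273H, against 11.95 and 12.4 CPM in R248Q. None of the gastric, blood or endothelial markers tested was called.

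The 2 contact mutants differed in many genes by small amounts. R273H cells had higher levels of 337 genes (2.58% of those tested) and lower levels of 479 genes (3.66%) than R248Q cells, 816 in all (6.24%), by edgeR's quasi-likelihood test at a Benjamini-Hochberg adjusted p below 0.05. The median size of the change was 0.145 on the log2 scale among the higher genes and 0.253 among the lower ones. A log2 fold change of at least 1 in size was reached by 2 higher and 2 lower genes among those called. These were TLL2 and LOC100996635 on the higher side and CHST13 and GRAMD1C on the lower side, of which LOC100996635 and GRAMD1C were named after their values were seen. All 4 had few reads. GRAMD1C had 2 and 3 counts in R273H, against 11 and 11 counts in R248Q. The calls of GRAMD1C (-1.84 to -2.33 without 1 library), LOC100996635 (1.04 without R273H replicate 2, 1.42 without R248Q replicate 1, 1.99 without R248Q replicate 2) and CHST13 (-0.85 without R273H replicate 1, -1.26 without R248Q replicate 1, -1.43 without R248Q replicate 2) were lost in those fits. Most of what follows therefore concerns modest shifts in genes with many reads.

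How many genes were called rested on each library and on the samples in the fit. Leaving out R273H replicate 1 gave 363 higher and 578 lower genes, leaving out R273H replicate 2 gave 116 and 203, leaving out R248Q replicate 1 gave 58 and 227, and leaving out R248Q replicate 2 gave 114 and 290. In a fit of all 8 libraries, whose shared estimate of spread includes the more variable GFP pair (chi-square of 5.72 per degree of freedom), 1 gene was called higher (0.00757%) and 19 lower (0.144%), 0.151% in all. Fits of the other mutant pairs, made the same way with 4 libraries each, called 623 genes higher (4.82%) and 731 lower (5.65%), 10.5% in all, in R273H against R175H, and 1268 higher (9.77%) and 1305 lower (10.1%), 19.8% in all, in R248Q against R175H. These pairs share libraries with the comparison of R273H and R248Q, and whether the counts differ was not tested.

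Transcript length moved with the groups. Genes called lower in R273H had a median longest transcript of 8878 nt, against 1846 nt for genes called higher and 3410 nt for all genes tested. GC content moved too, with a median of 46.3% in the lower genes and 56.2% in the higher genes, against 49.7% in all. Among the 1089 genes whose longest transcript reached 8000 nt, 295 were called lower (27.1%) and 2 higher, C4orf32 and FEM1A, the second of them named after its values were seen. Among the 531 genes under 1000 nt, 50 were called higher (9.42%) and 1 lower, PRAC1, also named after its values were seen. The call of FEM1A was lost without R273H replicate 1 (0.13), R248Q replicate 1 (0.16) or R248Q replicate 2 (0.17), that of PRAC1 without R273H replicate 1 (-0.26) or R248Q replicate 1 (-0.20), and that of C4orf32 without R248Q replicate 2 (0.37). The median log2 fold change ran from 0.073 under 1000 nt through 0.057, 0.024 and -0.036 in the classes between to -0.139 at 8000 nt or more. At the long end, the share called lower was 24.1% from 8000 to 12000 nt, 35.6% from 12000 to 16000 nt and 38.4% from 16000 nt.

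**Figure D1:**
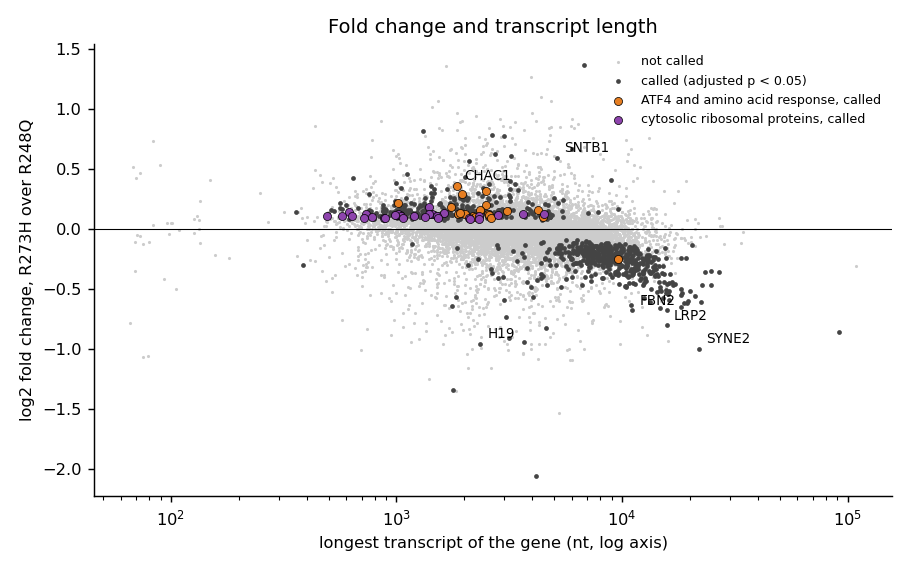
Each point is a gene, placed by the length of its longest transcript (nt, log axis) and its log2 fold change of R273H over R248Q. Black points were called at an adjusted p below 0.05, with called genes of the ATF4 group in orange and called ribosomal protein genes in purple. Called genes of 8000 nt or more lie almost all below 0 (295 lower, 2 higher).

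The trend was not of equal size in the libraries. In genes of 8000 nt or more, the median deviation from the mean of the 4 libraries was -0.032 in R273H replicate 1 and -0.108 in R273H replicate 2, against 0.077 in R248Q replicate 1 and 0.062 in R248Q replicate 2 (log2 CPM). In genes under 1000 nt it was 0.015 and 0.062 in R273H, against -0.046 and -0.024 in R248Q. Both R273H libraries lay on one side and both R248Q libraries on the other at each end, and R273H replicate 2 lay farthest from 0 at the long end. The labels give no measure of RNA integrity, and whether the trend comes from library preparation was not tested. With each library's own length trend removed, 254 genes were called higher (1.94%) and 178 lower (1.36%), 3.30% in all. Of the genes called without that step, 123 of the higher and 157 of the lower remained. The gene lists below are therefore given with the trend left in and with the trend removed, and genes named as called only with the trend removed were chosen after their values were seen.

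**Figure D2:**
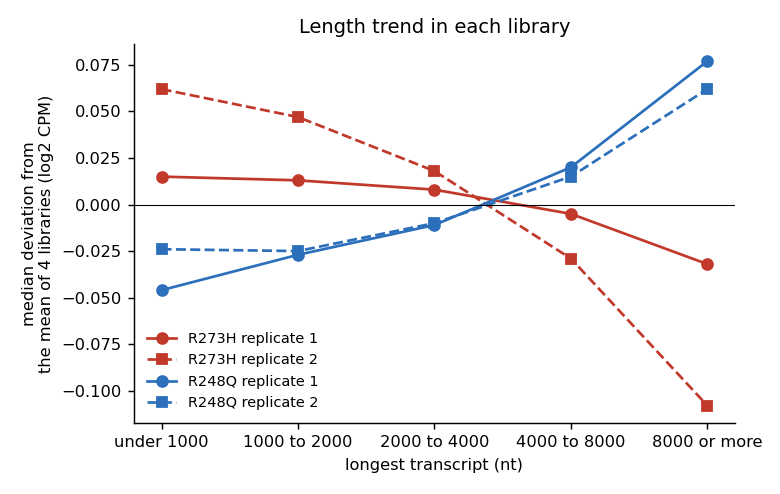
Median deviation of each library from the mean of the 4 libraries (log2 CPM) in 5 classes of longest transcript (nt), R273H in red and R248Q in blue. At 8000 nt or more the R273H libraries sit at -0.032 and -0.108 and the R248Q libraries at 0.077 and 0.062.

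Many genes for very large structural proteins fell in R273H. Of 30 genes for cytoskeletal linkers and the nuclear envelope, 16 fell in R273H and 1, LMNB2, rose. Over all genes tested, 3.66% were called lower and 2.58% higher. The call of LMNB2 was lost without any 1 of the 4 libraries (0.07 to 0.08). The median log2 fold change of the list was -0.173, against 0.003 over all genes tested. SYNE2, whose product nesprin-2 ties the nucleus to the cytoskeleton, had 43.9 and 36.9 CPM in R273H, against 83.4 and 78.1 CPM in R248Q. The lower R248Q library was thus well above the higher R273H library, and the log2 fold change was -0.9998 ± 0.06 (SE, edgeR adjusted p = 6.1e-39). AHNAK, a very large scaffold protein under the plasma membrane, had 414 and 372 CPM in R273H, against 612 and 594 CPM in R248Q, a log2 fold change of -0.62 ± 0.03 (edgeR adjusted p = 4.8e-56). DYNC1H1, the motor heavy chain of cytoplasmic dynein, had 569 and 506 CPM in R273H, against 791 and 744 CPM in R248Q, a log2 fold change of -0.51 ± 0.03. In both genes the libraries of the 2 mutants did not overlap, which was so for 46.7% of all genes tested. The spectraplakins DST and MACF1, which link actin to microtubules, fell by 0.61 ± 0.05 and 0.46 ± 0.04 on the log2 scale. The plakin PLEC fell by 0.31 ± 0.03, and the spectrin SPTAN1 by 0.27 ± 0.03. By contrast the lamin gene LMNA, with a shorter transcript (3190 nt), had a log2 fold change of 0.07 ± 0.03 and was not called.

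Removing the length trend shrank this group and left its largest members. With the trend removed, 8 of the 30 fell and 2 rose, and the list's median was -0.05. SYNE2 then had a log2 fold change of -0.74, AHNAK of -0.38 and DYNC1H1 of -0.27, all still called. FLNA, FLNC, TLN1, TLN2, NAV1, UTRN and SPTBN1 were called only with the trend left in. Without R273H replicate 2, 9 of the 30 fell, and without R248Q replicate 1, 10 did. In the fit of all 8 libraries 5 fell.

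Long genes of the cell surface and matrix fell as well. The giant cadherins FAT1 and FAT4 carry long rows of cadherin repeats, and all 7 tested members of this family had a negative log2 fold change, 3 of them called. Of all 13085 genes tested, 6408 had a negative one and 3.66% were called lower. The family's median longest transcript was 11956 nt. Of genes from 8000 to 12000 nt 24.1% were called lower, and of those from 12000 to 16000 nt 35.6%. The list's median was -0.189 with the length trend in and -0.038 with it removed, when 2 of the 7 were called lower. FAT1 had 166 and 146 CPM in R273H, against 245 and 247.6 CPM in R248Q, a log2 fold change of -0.66 ± 0.04 with the length trend in and -0.45 with it removed. FAT4 had 56.9 and 45.6 CPM in R273H, against 78.0 and 76.4 CPM in R248Q. CELSR1 was the third, at -0.26 ± 0.05, and its call was lost without R248Q replicate 2 (-0.20) and with the length trend removed (-0.10). Without R248Q replicate 2 the cadherins called lower were then 2.

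Among 30 mesenchymal and matrix genes, 4 fell and 3 rose, where 3.66% of all genes tested were called lower and 2.58% higher. The list's median was -0.044. With the length trend removed 2 fell and 2 rose, and the median was -0.009. FBN2, the microfibril protein fibrillin-2, had 51.6 and 50.4 CPM in R273H, against 80.7 and 82.4 CPM in R248Q, a log2 fold change of -0.68 ± 0.06 (edgeR adjusted p = 1.2e-22). HSPG2, which encodes the basement membrane proteoglycan perlecan, had 116 and 110 CPM in R273H, against 159 and 165 CPM in R248Q. With the length trend removed they stood at -0.52 and -0.32 and were still called. The laminin chain genes LAMC1 and LAMA1 were the other falls and were not called with the trend removed or without R273H replicate 2 (-0.12 and -0.38), and that of LAMA1 was lost too without R248Q replicate 1 (-0.51) or R248Q replicate 2 (-0.41). VIM rose by 0.11 ± 0.02, TWIST1 by 0.13 ± 0.03 and COL1A2 by 0.15 ± 0.05 on the log2 scale. The call of VIM was lost without R248Q replicate 2 (0.10), that of TWIST1 without R273H replicate 2 (0.07) or R248Q replicate 1 (0.09), and that of COL1A2 without R273H replicate 1 (0.12), R273H replicate 2 (0.18) or R248Q replicate 2 (0.08). The 3 rises became 1 without R273H replicate 2 and 1 without R248Q replicate 2, and the 4 falls became 2 without R273H replicate 2.

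The growth factor receptor and IGF list held 32 tested genes, of which 4 fell and 1, IGFBP4, rose. Of all genes tested, 3.66% were called lower and 2.58% higher. All 4 falls were large endocytic or Wnt co-receptors, namely LRP1, LRP2, LRP6 and IGF2R. LRP2, or megalin, had 10.7 and 8.12 CPM in R273H, against 16.8 and 15.9 CPM in R248Q, a log2 fold change of -0.80 ± 0.13 (edgeR adjusted p = 2.0e-07) that was -0.58 with the length trend removed. LRP1 had 151 and 134 CPM in R273H, against 213 and 195 CPM in R248Q. IGF2R, which clears IGF2 and carries lysosomal enzymes, had 103 and 108 CPM in R273H, against 138 and 139 CPM in R248Q. EGFR had about 1 CPM or less in every one of the 4 libraries and was not called. The list's median was -0.02, close to that of all genes. With the length trend removed 3 fell, none rose and the median was 0.022. IGFBP4 was not called without R273H replicate 2 (0.08), without R248Q replicate 1 (0.10) or with the length trend removed (0.10), nor LRP6 without R273H replicate 2 (-0.17) or with the trend removed (-0.18).

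Several histone methyltransferase genes with long transcripts fell too. KMT2A, KMT2B, KMT2C and KMT2D are histone H3 lysine 4 methyltransferases of the MLL family. Some genes of that family, not all, are known as targets of gain-of-function p53 mutants in other cells. Of 20 tested genes of the KMT2 and MYST families and their partners, 5 fell, these 4 and SETD1B. Among all genes tested 3.66% were called lower, and the median of the list was 0.004. KMT2D had 158 and 142 CPM in R273H, against 225 and 234 CPM in R248Q, a log2 fold change of -0.62 ± 0.04 (edgeR adjusted p = 9.7e-38). KMT2A had 113 and 100.0 CPM in R273H, against 146 and 142 CPM in R248Q, a log2 fold change of -0.44 ± 0.05. With the length trend removed all 5 were still called, at -0.37 for KMT2D and -0.22 for KMT2A, and KAT7 was called higher at 0.22. In the fit of all 8 libraries KMT2D was the 1 gene of the list called. The MYST acetyltransferase genes KAT6A and KAT6B had log2 fold changes of -0.14 ± 0.06 and -0.17 ± 0.07 and were not called. Outside the lists, UBR4, a ubiquitin ligase of the N-degron pathway, had 147 and 144 CPM in R273H, against 234 and 230 CPM in R248Q, a log2 fold change of -0.67 ± 0.04, or -0.45 with the trend removed.

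Of 36 tested target genes that wild-type p53 activates, edgeR, DESeq2 and limma-voom each called 0, and 0 reached an unadjusted p below 0.05 in edgeR. Their median log2 fold change was 0.005, with a range of -0.375 to 0.337. After removal of the length trend edgeR again called 0, with 0 at an unadjusted p below 0.05 and a median of -0.002. Of 17 genes of the p53 family and its regulators, 4 fell, where 3.66% of all genes tested did. A negative log2 fold change was seen in 14 of the 17, against 6408 of all 13085 tested. The list's median was -0.130 with the trend in and -0.082 with it removed. These were the acetyltransferases EP300 (-0.37 ± 0.04) and CREBBP (-0.26 ± 0.04), the DNA damage kinase ATM (-0.35 ± 0.06) and the kinase HIPK2 (-0.37 ± 0.08). EP300 had 131 and 116 CPM in R273H, against 162 and 157 CPM in R248Q. The longest transcripts of all 4 exceed 8000 nt, and EP300 alone was still called with the length trend removed (-0.24). HIPK2 was not called without R273H replicate 2 (-0.20). MDM2, the main ubiquitin ligase of p53, had a log2 fold change of -0.09 ± 0.10 and was not called. In the fit of all 8 libraries edgeR called 0 genes of this list, with 4 lower at an unadjusted p below 0.05.

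Of 19 tested noncoding transcripts, hosts of small nucleolar RNAs and others, 3 fell and 1 rose, against 3.66% and 2.58% of all genes tested. Even so, 14 had a positive log2 fold change, against 6677 of all 13085 genes tested, and the list's median was 0.097. The same 3 fell with the length trend removed, none rose and the median was 0.030. The rise was that of ZFAS1 (0.16 ± 0.05), a host gene of small nucleolar RNAs that lies antisense to a neighbour, and its call was lost without R273H replicate 2 (0.10) or R248Q replicate 1 (0.07). H19, the maternally expressed imprinted RNA whose locus neighbours IGF2, had 3.74 and 4.62 CPM in R273H, against 8.45 and 7.81 CPM in R248Q. Its longest transcript was 2348 nt, and its log2 fold change was -0.96 ± 0.19 (edgeR adjusted p = 3.7e-05), or -0.99 with the length trend removed. MALAT1, a nuclear RNA of splicing speckles, had 22.8 and 23.9 CPM in R273H, against 32.4 and 33.1 CPM in R248Q. Its log2 fold change was -0.49 ± 0.09, or -0.45 with the trend removed. NEAT1, the scaffold of paraspeckles, had 86.5 and 90.1 CPM in R273H, against 121 and 123 CPM in R248Q, and its change was -0.47 ± 0.05, or -0.21 with the trend removed. Outside that list, KCNQ1OT1, an imprinted RNA transcribed opposite KCNQ1, had 6.59 and 4.87 CPM in R273H, against 9.39 and 11.3 CPM in R248Q. It overlaps KCNQ1, and no source used here gives the strand setting, so reads of the 2 genes may not be told apart.

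Many genes of the amino acid response rose in R273H. ATF4 is a transcription factor translated when cells lack amino acids or face other stress, and its targets make, import and charge amino acids. Of 37 tested genes of this response, 18 rose and 1 fell, where 2.58% of all genes tested were called higher and 3.66% lower. The list's median log2 fold change was 0.112, against 0.003 over all genes. With the length trend removed 15 rose, and the median was 0.09.

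The 3 largest rises of the list were those of CHAC1, TRIB3 and CEBPB, followed by EIF4EBP1, PCK2 and DDIT4. TRIB3, a pseudokinase that restrains ATF4, had 81.8 and 89.0 CPM in R273H, against 68.4 and 69.2 CPM in R248Q, a log2 fold change of 0.31 ± 0.06 (edgeR adjusted p = 4.5e-06). CHAC1, which degrades glutathione, had 42.3 and 42.5 CPM in R273H, against 33.4 and 32.6 CPM in R248Q, a log2 fold change of 0.36 ± 0.08. DDIT4, an inhibitor of mTORC1, had 642 and 680 CPM in R273H, against 577 and 589 CPM in R248Q, a log2 fold change of 0.18 ± 0.03 (edgeR adjusted p = 2.0e-07). For all 3 genes the lower R273H library exceeded the higher R248Q library. The libraries of R273H and R248Q did not overlap for 46.7% of all genes tested, so this alone does not set these genes apart. EIF4EBP1, the cap-binding repressor 4E-BP1, had 247.7 and 256 CPM in R273H, against 213 and 222 CPM in R248Q. CEBPB, which pairs with ATF4 on DNA, rose by 0.29 ± 0.05 on the log2 scale, and its call was lost without R248Q replicate 1 (0.21). DDIT3, which encodes CHOP, had 11.8 and 12.3 CPM in R273H, against 9.90 and 11.3 CPM in R248Q, and was not called.

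Genes that make, carry or charge amino acids rose as well. PCK2, which makes phosphoenolpyruvate in mitochondria, rose by 0.20 ± 0.04 on the log2 scale, and its call was lost without R248Q replicate 2 (0.12). ASNS, asparagine synthetase, had 299 and 308 CPM in R273H, against 271 and 272.7 CPM in R248Q, a log2 fold change of 0.16 ± 0.04. The serine pathway genes PHGDH, PSAT1 and SHMT2 rose by 0.12 ± 0.03, 0.11 ± 0.03 and 0.12 ± 0.03. The tRNA synthetase genes WARS, SARS and GARS rose by 0.15 ± 0.04, 0.12 ± 0.03 and 0.09 ± 0.03. The call of ASNS was lost without R248Q replicate 1 (0.15), as was that of WARS (0.12), and those of PHGDH, PSAT1 and SHMT2 were lost without R248Q replicate 1 (0.11 to 0.13) or R248Q replicate 2 (0.10 to 0.13). SARS was not called without R273H replicate 1 (0.10), R248Q replicate 1 (0.12) or R248Q replicate 2 (0.12), nor GARS without any 1 library (0.09 in each). GPT2, PYCR1, MTHFD2, SLC3A2 and ATF4 itself made up the rest of the 18. The calls of ATF4 and GPT2 were lost without R273H replicate 2 (0.09 and 0.13) or R248Q replicate 1 (0.11 and 0.13). Those of PYCR1 and MTHFD2 were lost without R273H replicate 2 (0.075 and 0.091), R248Q replicate 1 (0.106 and 0.081) or R248Q replicate 2 (0.149 and 0.118). SLC3A2 was not called without R273H replicate 1 (0.081), R248Q replicate 1 (0.107) or R248Q replicate 2 (0.092). The cystine carrier SLC7A11 was the 1 gene of the list that fell, with 107 and 104 CPM in R273H, against 130 and 121 CPM in R248Q. Its longest transcript was 9645 nt, its call was lost without R248Q replicate 1 (-0.20), and with the length trend removed it was -0.12 and not called.

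The count of 18 rested on particular libraries, and R248Q replicate 1 lowered it most when left out. It was 15 without R273H replicate 1, 13 without R273H replicate 2, 5 without R248Q replicate 1 and 9 without R248Q replicate 2. DESeq2 called 9 of the genes higher. In the fit of all 8 libraries edgeR called 0, with 15 higher and 1 lower at an unadjusted p below 0.05 and a list median of 0.111. TRIB3, DDIT4 and EIF4EBP1 were called under every alternative except the fit of all 8 libraries. The unfolded protein response, a neighbouring stress pathway, had 0 of 25 tested genes called by edgeR, with 3 higher and 1 lower at an unadjusted p below 0.05, and 0 called by DESeq2 or limma-voom. The chaperone gene HSP90B1 of this list was called lower with the length trend removed (-0.11).

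The promoters of CHAC1 and ASNS are shown because their genes rose and these windows hold the composite element that ATF4 and a C/EBP partner bind. The element was searched as TGATGNAA on both strands in the 250 bases before each gene's start, in RefSeq sequences of GRCh38.p14. Promoters were found for 27 of the 37 genes, and 3 of them held a match (11.1%), against 1104 of 35116 promoters in all (3.14%). A single promoter of each listed gene was searched, while the total counts every promoter. The genes were listed for their link to ATF4, so these shares do not test that link. Matches stood in 2 of the 12 promoters of genes called higher and in 1 of the other 15, that of AARS. Capitals mark the match, which starts 209 bases before the gene's start in CHAC1 and 68 bases before it in ASNS. In CHAC1 the match lies on the opposite strand, so the letters shown are its reverse complement. The CHAC1 window is chr15:40953221-40953470 on the plus strand, and the ASNS window is chr7:97872409-97872658 on the minus strand. The files were counted on hg19, and these coordinates are those of the promoter table.
CHAC1: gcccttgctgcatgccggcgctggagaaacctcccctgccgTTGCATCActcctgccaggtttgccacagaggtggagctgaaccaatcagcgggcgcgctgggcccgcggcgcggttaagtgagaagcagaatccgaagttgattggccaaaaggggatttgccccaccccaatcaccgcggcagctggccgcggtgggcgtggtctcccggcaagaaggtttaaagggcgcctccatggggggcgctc
ASNS: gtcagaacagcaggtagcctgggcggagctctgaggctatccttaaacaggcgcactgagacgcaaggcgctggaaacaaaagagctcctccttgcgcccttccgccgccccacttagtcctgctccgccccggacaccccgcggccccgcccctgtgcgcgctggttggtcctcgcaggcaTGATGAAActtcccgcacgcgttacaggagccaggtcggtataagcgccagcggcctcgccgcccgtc
A match is a description of the letters in the window and not a site shown to be bound.

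Cytosolic ribosomal protein genes rose together by small amounts. All 40 tested genes had a positive log2 fold change, 30 of them called, with a median of 0.103 and a range of 0.04 to 0.183. Of all 13085 genes tested, 6677 had a positive one and 2.58% were called higher. RPL3, at the peptidyl transferase centre, had 2451 and 2529 CPM in R273H, against 2282 and 2288 CPM in R248Q, a log2 fold change of 0.12 ± 0.02. Many ribosomal protein genes have processed pseudogenes, so the counting of their reads is uncertain. These transcripts are short, with a median longest transcript of 1270 nt, and with the length trend removed 10 were called and the list's median was 0.041. Without R273H replicate 2, 9 were called, without R248Q replicate 1, 7, and without R248Q replicate 2, 12. In the fit of all 8 libraries edgeR called 0, with 5 higher at an unadjusted p below 0.05.

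Some genes outside the ATF4 and ribosomal lists rose by more than their members. SNTB1, which encodes the dystrophin-binding adaptor beta-1-syntrophin, had 28.1 and 25.7 CPM in R273H, against 17.8 and 17.7 CPM in R248Q. Its log2 fold change was 0.60 ± 0.10 (edgeR adjusted p = 5.3e-07), or 0.63 with the length trend removed, and it was the 1 gene called higher in the fit of all 8 libraries. PPP1R1C, a protein phosphatase inhibitor, had 9.08 and 6.50 CPM in R273H, against 4.87 and 4.20 CPM in R248Q, and its call was lost without R273H replicate 1 (0.52) and without R248Q replicate 2 (0.67). FGF21, a hormone of the fasting response and an ATF4 target outside the list, had 3.56 and 3.68 CPM in R273H, against 1.88 and 2.23 CPM in R248Q. Its log2 fold change was 0.81 ± 0.27, and its call was lost without any 1 of the 4 libraries (0.69 to 0.94). C4orf32 rose by 0.41 ± 0.10 on the log2 scale from a transcript of 8901 nt, and by 0.52 with the length trend removed. TLL2, a metalloprotease that cuts procollagen, had 16 and 25 counts in R273H, against 9 and 7 counts in R248Q, and its call was lost without R273H replicate 2 (1.05), R248Q replicate 1 (1.55) or R248Q replicate 2 (1.20).

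**Figure D3:**
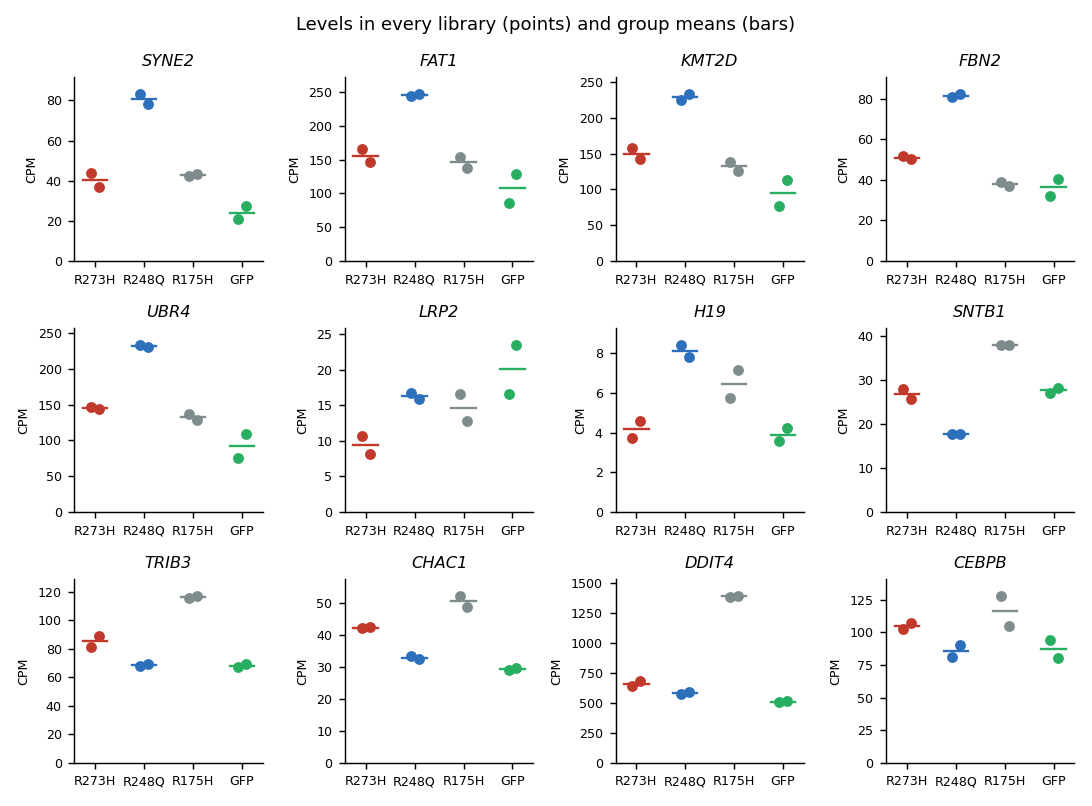
CPM of 12 genes in each library (points) with group means (bars), in R273H, R248Q, R175H and GFP cells, scaled over all 8 libraries. In the top row the R273H libraries of SYNE2, FAT1, KMT2D and FBN2 lie below those of R248Q, while SNTB1, TRIB3, CHAC1, DDIT4 and CEBPB lie above.

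The levels in the other cells place the difference, as a description. SYNE2 had 43.8 and 36.9 CPM in R273H, 83.3 and 78.0 CPM in R248Q and 42.3 and 43.5 CPM in R175H, against 20.8 and 27.4 CPM in GFP cells. For FAT1, KMT2D and UBR4 both R248Q libraries were likewise the highest of the 8 and both GFP libraries the lowest, with R273H and R175H between them. These are long genes, and the levels were not corrected for length. The 2 GFP libraries also differed from each other, at 85.5 and 129 CPM for FAT1 and 77.4 and 113 CPM for KMT2D. FBN2 stood at 39.1 and 36.9 CPM in R175H and 32.0 and 40.6 CPM in GFP cells, so R175H and GFP overlapped. LRP2 did not follow that order, with 16.5 and 12.8 CPM in R175H, against 16.7 and 23.5 CPM in GFP cells. H19 stood at 5.75 and 7.18 CPM in R175H, against 3.60 and 4.21 CPM in GFP cells, and its GFP libraries overlapped those of R273H. For the ATF4 group, DDIT4 had 1383 and 1392 CPM in R175H, against 505 and 513 CPM in GFP cells, so that R273H lay between R175H and the others. TRIB3 had 116 and 117 CPM in R175H, against 67.0 and 69.6 CPM in GFP cells, a level that overlapped R248Q. SNTB1 had 38.1 and 38.0 CPM in R175H, against 27.1 and 28.2 CPM in GFP cells, which left R248Q as the lowest group.

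**Figure D4:**
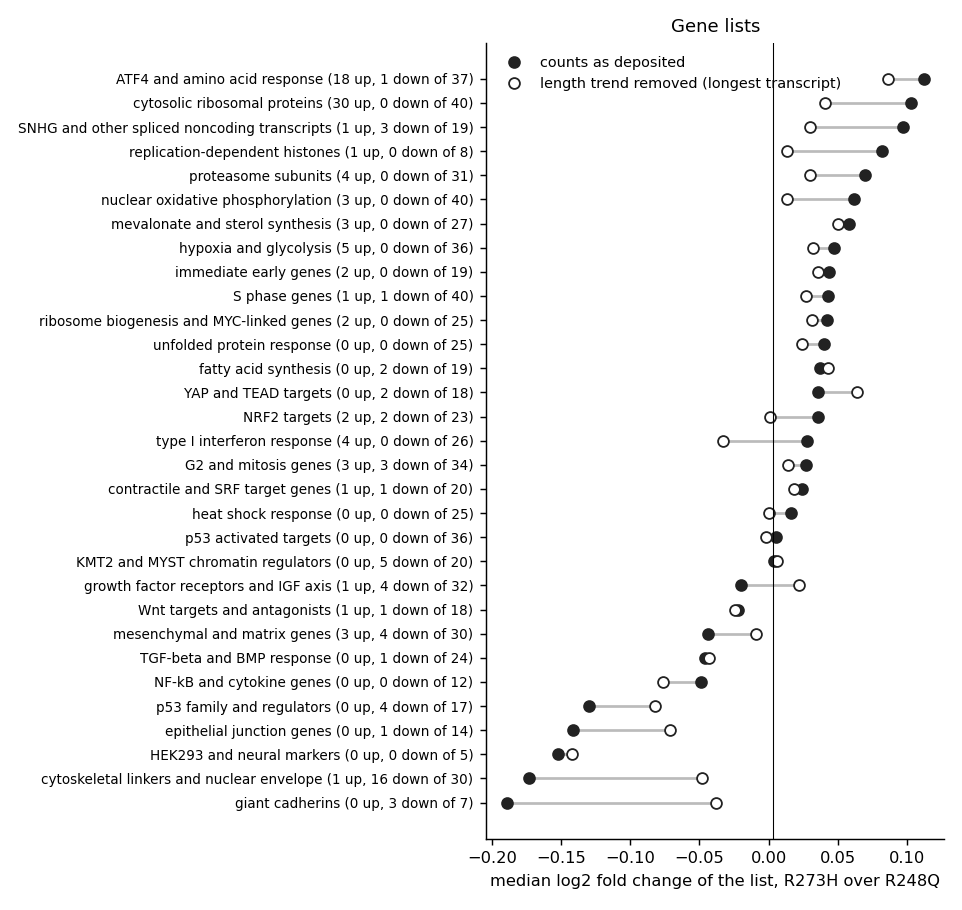
Median log2 fold change, R273H over R248Q, of each gene list with at least 5 genes tested, with the counts as deposited (filled) and with the length trend removed (open). The vertical line is the median of all genes tested (0.003), and the labels give genes called higher and lower of those tested. The ATF4 and ribosomal lists stand at 0.112 and 0.103, and the cadherins at -0.189.

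In most metabolic and housekeeping lists the calls were rises, many of them lost without 1 library, and 2.58% of all genes tested were called higher. Of 36 hypoxia and glycolysis genes 5 rose, all glycolytic enzymes, with a list median of 0.047. TPI1 and PGK1 were the 2 that rose with the length trend removed, and the median was then 0.032. TPI1, a glycolytic isomerase, rose by 0.12 ± 0.03 on the log2 scale, and its call was lost without R273H replicate 2 (0.10), R248Q replicate 1 (0.11) or R248Q replicate 2 (0.12). Leaving out any of these 3 libraries left none of the 36 called by edgeR, against 11 higher at an unadjusted p below 0.05 with 3 called by DESeq2 and 7 by limma-voom, in the full comparison. Of 31 proteasome genes 4 rose, of 40 nuclear oxidative phosphorylation genes 3 rose and of 26 type I interferon genes 4 rose, among them HLA-B and HLA-C, whose reads can be shared between paralogs. Without R273H replicate 1, R273H replicate 2, R248Q replicate 1 and R248Q replicate 2 in turn, the proteasome list had 4, 0, 0 and 1 genes called higher, the oxidative phosphorylation list 6, 0, 0 and 2, and the interferon list 3, 1, 0 and 2. The oxidative phosphorylation list, with the length trend removed, had 5 genes called higher, NDUFS7 and 4 not called with the trend in (NDUFA9, NDUFS1, SDHC and ATP5A1), while its median was 0.013, against 0.062 with the trend in. With the length trend removed edgeR called 0 genes of the proteasome and interferon lists, with 1 and 5 higher and 1 and 1 lower at an unadjusted p below 0.05, and the interferon median changed sign, being 0.03 with the trend in and -0.03 with it removed. DESeq2 called 0 genes of either list, and limma-voom 4 of each, with the trend in. Of 27 mevalonate and sterol genes 3 rose, INSIG1 and PMVK among them. The call of PMVK was lost without R273H replicate 2 (0.15), R248Q replicate 1 (0.18) or R248Q replicate 2 (0.19). INSIG1, the sterol sensor of the SREBP pathway, rose by 0.15 ± 0.04, and its call was lost without R248Q replicate 1 (0.12). INSIG1 was among 2 genes of the list that rose with the length trend removed (0.13). Of 19 fatty acid synthesis genes 2 fell, the long genes FASN (-0.15 ± 0.02) and ACACA (-0.19 ± 0.04), and with the length trend removed neither was called.

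Cell cycle lists held a few falls of long genes and rises of shorter ones, where 2.58% of all genes tested were called higher and 3.66% lower. Of 34 G2 and mitosis genes, 3 fell and 3 rose. The falls were the long genes MKI67 (-0.41 ± 0.04), CENPF (-0.31 ± 0.03) and ASPM (-0.19 ± 0.04). MKI67, the Ki-67 proliferation marker, had 275 and 244 CPM in R273H, against 351 and 338 CPM in R248Q, and stayed called with the length trend removed (-0.23). ASPM was not called without R273H replicate 2 (-0.12) or with the length trend removed (-0.04). The rises, CCNB1 (0.10 ± 0.03) and BIRC5 (0.11 ± 0.04) among them, were not called with the trend removed, nor without any 1 library (0.08 to 0.12 for CCNB1 and 0.10 to 0.11 for BIRC5). Of 40 S phase genes, PCNA was called higher (0.12 ± 0.03) and POLE lower (-0.16 ± 0.05), and both calls were lost without R273H replicate 2 (0.11 and -0.09), R248Q replicate 1 (0.14 and -0.17) or R248Q replicate 2 (0.09 and -0.16). After removal of the length trend edgeR called 0 of the 40, with 4 higher at an unadjusted p below 0.05. The 2 SRF-linked genes called were MKL2, a coactivator of SRF, at -0.33 ± 0.07, lost without R273H replicate 2 (-0.22), and the tropomyosin TPM4 at 0.13 ± 0.03, lost without R248Q replicate 1 (0.11). Both stayed called with the length trend removed (-0.22 and 0.10), and ACTB was then called lower (-0.06). ACTA2 had 13.0 and 13.1 CPM in R273H, against 11.4 and 11.8 CPM in R248Q, and was not called.

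The remaining lists had from 0 to 4 genes called each, where 2.58% of all genes tested were called higher and 3.66% lower. Of 24 TGF-beta and BMP response genes 1 fell, the receptor BMPR2 (-0.29 ± 0.06), with 62.7 and 61.2 CPM in R273H, against 76.4 and 75.0 CPM in R248Q. Of 18 genes of the YAP and TEAD list 2 fell, AMOTL1 (-0.26 ± 0.05) and TEAD1 itself (-0.15 ± 0.05). TEAD1 was not called without R273H replicate 2 (-0.07), R248Q replicate 1 (-0.12) or R248Q replicate 2 (-0.18). With the length trend removed none of these 3 long genes was called, and MSX1 of the TGF-beta and BMP list was called lower (-0.23). The heat shock list had 0 of 25 genes called by edgeR, with 3 higher at an unadjusted p below 0.05, and 0 called by DESeq2 or limma-voom. HSPD1 was called lower with the length trend removed (-0.07), with 2 higher and 4 lower at an unadjusted p below 0.05. The 12 tested NF-kB and cytokine genes had 0 called by edgeR, with 1 higher at an unadjusted p below 0.05, and 0 by DESeq2 or limma-voom, while SOD2 was called higher (0.27) with the length trend removed. Of 19 immediate early genes 2 rose, MYC and KLF2. MYC had 539 and 521 CPM in R273H, against 498 and 488 CPM in R248Q, a log2 fold change of 0.10 ± 0.03, and its call was lost without R273H replicate 1 (0.08), R248Q replicate 1 (0.11) or R248Q replicate 2 (0.09). KLF2 had 12.7 and 12.4 CPM in R273H, against 9.39 and 9.26 CPM in R248Q, and its call was lost without any 1 of the 4 libraries (0.41 to 0.45). Neither was called with the length trend removed.

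Of 23 genes listed with NRF2, the regulator of antioxidant genes, 2 rose and 2 fell, where 6.24% of all genes tested were called. TXN, which encodes thioredoxin, had 314 and 321 CPM in R273H, against 286 and 285 CPM in R248Q, a log2 fold change of 0.15 ± 0.03. KEAP1, the adaptor that marks NRF2 for degradation, had 412 and 415 CPM in R273H, against 379 and 374 CPM in R248Q, and it alone stayed called with the length trend removed (0.11). The falls were SLC7A11, described above, and the exporter gene ABCC1 (-0.14 ± 0.05). The calls of TXN and KEAP1 were lost without R248Q replicate 1 (0.15 and 0.14) or R248Q replicate 2 (0.15 and 0.12), and that of ABCC1 without R273H replicate 2 (-0.12), R248Q replicate 1 (-0.16) or R248Q replicate 2 (-0.13). Of 14 tested epithelial junction genes 11 had a negative log2 fold change, against 6408 of all 13085 tested. The list's median was -0.141 with the length trend in and -0.071 with it removed. The 1 call was the desmosomal cadherin DSG2 (-0.14 ± 0.04), lost with the trend removed (-0.09) and without R273H replicate 1 (-0.13), R273H replicate 2 (-0.15) or R248Q replicate 2 (-0.09). Of 18 Wnt targets and antagonists DKK3 rose (0.78 ± 0.26) and APC fell (-0.19 ± 0.06). The call of DKK3 was lost without any 1 library (0.68 to 0.89), and that of APC without R273H replicate 2 (-0.14), R248Q replicate 1 (-0.19) or R248Q replicate 2 (-0.19). Neither was called with the length trend removed, and NKD1 was called higher (0.16). Of 25 ribosome biogenesis genes MYC and FBL rose, and of 8 replication-dependent histone genes HIST1H1C rose, and none of these was called with the trend removed. The call of FBL was lost without R273H replicate 2 (0.07), R248Q replicate 1 (0.13) or R248Q replicate 2 (0.07), and that of HIST1H1C without R273H replicate 2 (0.28), R248Q replicate 1 (0.42) or R248Q replicate 2 (0.44).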

How the data were processed

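RNA was measured by sequencing of mRNA libraries (Roche Kapa mRNA Hyper kit, per the labels' protocols). The authors deposited whole-number counts per gene symbol for 8 libraries, without normalization. Reads were aligned with STAR 2.5 to hg19, per the submitters' processing notes. No source used here names the counting tool, annotation or strand setting.

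From the counts, the 4 libraries of R273H and R248Q were fitted with edgeR 4.0.16 in R 4.3.3. The steps were filterByExpr (a count minimum of 10 and a total of 15), TMM scaling and the quasi-likelihood test, with Benjamini-Hochberg adjustment over 13085 genes. The fit had 2 residual degrees of freedom per gene, against 367 prior degrees of freedom from the spread shared over genes. Small p-values and SE therefore rest mostly on that shared spread. Standard errors (SE) were taken from the fold change and its F statistic. GFP libraries were kept out of the fit with their larger spread already known. DESeq2 1.42.0, limma 3.58.1 with voom, other scalings and filters, other sets of libraries, a replicate block and length corrections were alternatives. The script was tested on simulated data.

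Transcript lengths were taken from GENCODE release 29, matched by symbol (22677 genes) or an older symbol (894), with 1864 unmatched. A listed transcript can fall short of the full one. In the text the length trend was removed with the longest transcript, a choice made after seeing the data because the median over transcripts was far too short for AHNAK. The correction was a loess curve per library. No replicate pairing was found: same-numbered libraries deviated together with r = 0.018 over 10109 genes.

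Genes were named by rule. Among called genes with a mean of at least 1 CPM and no overlap between groups, the rule took the 12 largest rises and 12 largest falls, then 8 of each with the length trend removed, and up to 3 called members of each list. Other list members and genes noted as chosen after their values were seen stand outside it. The members and lists were chosen with earlier results of these data known. Results of some genes, including some that the rule named, are not reported here. No mitochondrially encoded gene is among the genes tested.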

Additional observations from a re-analysis of the deposited data

How the results depend on the processing

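The size of the difference between R273H and R248Q depended strongly on the samples and tools. Against 337 genes called higher and 479 lower, the counts were 26 and 104 with no filter beyond 1 count, 80 and 147 with DESeq2, 1 and 19 with all 8 libraries, and 208 higher with the 6 mutant libraries. They were 220 and 185 with the length trend removed by median length, 208 and 178 with length and GC removed, 178 lower by longest transcript, and 176 and 131 by longest transcript with 6 libraries. A log2 fold change of at least 1 left 2 and 2, and an adjusted p below 0.01 left 477 of 816 in both directions together. Leaving out 1 library gave 58 to 363 higher and 203 to 578 lower genes. Without R248Q replicate 1 there were 55 shared higher calls and 220 shared lower calls. Under every alternative except all 8 libraries 13 higher and 60 lower genes stayed called, and 19 of those lower genes stayed called with all 8 too. Genes to which DESeq2 gave no adjusted p could not enter these counts. SNTB1 was among them and stayed called under the 17 alternatives that gave one. LRP2, H19 and MALAT1 were among them too and lost their calls only with all 8 libraries. For the pairs with R175H, the fits of all 8 libraries gave 186 higher and 293 lower genes for R273H, and 425 and 522 for R248Q, and removing the length trend gave 994 higher for R273H. The median log2 fold change under 1000 nt, 0.063 by median length, was 0.034 for R273H replicate 1 against R248Q replicate 2 and 0.088 for R273H replicate 2 against R248Q replicate 1. At 8000 nt or more by median length it was -0.189, and -0.138 for R273H replicate 1 against R248Q replicate 2. By longest transcript it was -0.139 in the full comparison. APC was the 1 named gene that changed sign, at -0.19 in the comparison and 0.007 with the length trend removed by median length, with or without the block. The causes were not tested. Samples that share a number share no stated batch. A fit with the replicate block called 374 genes higher and 507 lower, and 210 lower with the length trend removed too. All 337 and 479 calls were among those of the block. With 2 libraries a group, small changes in genes with few reads lie beyond this depth.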
